A study of Mus musculus with 13 samples.

Results

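The Fc receptor genes are 6 genes, *Fcer1g*, *Fcgr1*, *Fcgr3*, *Fcgr4*, *Fcgr2b* and *Fcgrt*, that were taken by symbol from the deposited annotation of 55401 genes. Each symbol named 1 row. The 13 bulk RNA-seq libraries came from frozen brain hemispheres of male C57BL/6J mice that were 6 to 8 weeks old at the start and received a diet with or without cuprizone (CPZ), a copper chelator that kills oligodendrocytes. The CTL group (n = 5) was fed control chow for 6 weeks, the CPZ group (n = 4) 0.3% cuprizone for 4 weeks, and the RCV group (n = 4) the same cuprizone diet for 4 weeks and then control chow for 2 weeks. The labels name no transgene, antibody or immune stimulus in any group, and a whole hemisphere mixes demyelinated and spared regions. The CPZ mice were collected 2 weeks of diet earlier than the CTL and RCV mice, so diet and collection time cannot be told apart in the comparisons with CPZ. The treatment text of the labels and the methods of the paper give fewer mice per group than there are libraries. A figure legend of the paper gives 5 control, 4 CPZ and 4 recovery samples, all with bulk RNA-seq, and each library was taken as 1 mouse. The age given here is that of the labels, and the paper gives a higher one.

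Fc receptors bind the constant part of antibodies. *Fcgr1*, *Fcgr3* and *Fcgr4* encode the activating IgG receptors Fc gamma RI, RIII and RIV, which depend on the Fc receptor gamma chain encoded by *Fcer1g*. The gamma chain carries the tyrosine motif that recruits the kinase Syk and starts phagocytosis and cytokine release. *Fcgr2b* encodes the inhibitory IgG receptor, which recruits the lipid phosphatase encoded by *Inpp5d* and restrains the same signal. *Fcgrt* encodes the heavy chain of the neonatal receptor FcRn, which pairs with beta-2 microglobulin, binds IgG inside endosomes, and returns it to the cell surface. In the brain, the gamma chain and the IgG receptors are carried chiefly by microglia and other macrophages, while FcRn is also known in endothelium and choroid plexus.

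Of the 6 genes, 4 lie within 276 kb on chromosome 1 of mm10. *Fcgr2b* spans chr1:170958617-170976547 on the minus strand, *Fcgr4* chr1:171018920-171029761 on the plus strand, *Fcgr3* chr1:171051174-171064935 on the minus strand and *Fcer1g* chr1:171229572-171234365 on the minus strand. *Fcgr1* is at chr3:96282909-96293969 and *Fcgrt* at chr7:45092990-45103851, both on the minus strand. *Fcgr2b* and *Fcgr3* arose from a common ancestor and still share coding sequence, which bears on how short reads are assigned to them. Of the 50-base windows of annotated transcripts, 9.58% of the 1733 in *Fcgr3* were also in *Fcgr2b*. Of the 5685 windows of *Fcgr2b*, 6.95% occurred in other genes, 166 of them in *Fcgr3*, 107 in the antisense gene *Gm38204* and 98 in *Cplx2*. None of the 870 windows of *Fcer1g*, 2588 of *Fcgr1*, 1207 of *Fcgr4* or 2145 of *Fcgrt* occurred in another gene. The longest stretch in common had 129 bases, all of them coding, and crossed 1 exon junction, with 102 bases in the first exon and 27 in the next. It was read from the *Fcgr2b* transcript at chr1:170967980-170968081 and chr1:170966674-170966700, and from *Fcgr3* at chr1:171057691-171057792 and chr1:171054167-171054193, and is shown because a read inside it cannot be placed by its letters.
*Fcgr2b* and *Fcgr3* shared stretch: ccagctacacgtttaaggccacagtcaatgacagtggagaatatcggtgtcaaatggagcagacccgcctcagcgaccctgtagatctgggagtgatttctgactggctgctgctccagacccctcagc
The estimated counts of these 2 genes were not whole numbers in any library but CPZ replicate 3, and those of the other 4 genes were whole in all libraries.

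The 120 bases before a RefSeq start of each gene are shown because 5 of the 6 genes moved together and *Fcgrt* did not. They were taken from the RefSeq promoters of GRCm38.p6, the assembly behind mm10, 5′ to 3′ on the gene's strand. *Fcgr3* had 2 entries a few bases apart, of which 1 is printed. The RefSeq starts used for *Fcgr3* (chr1:171059394) and *Fcgr2b* (chr1:170976071) lie inside the gene spans given above. So do, by fewer bases, those of *Fcgr4* (chr1:171018926), *Fcer1g* (chr1:171234349) and *Fcgrt* (chr7:45103822). The blocks of these 5 genes are therefore not upstream of the whole annotated gene. Capitals mark TTCCTC, the reverse of the PU.1/ETS core GAGGAA, and in *Fcgr1* also TTCNNNGAA, the STAT element, and in *Fcgr4* also GAAANNGAA, an interferon-response pair.
Fcer1g, chr1:171234350-171234469, minus strand: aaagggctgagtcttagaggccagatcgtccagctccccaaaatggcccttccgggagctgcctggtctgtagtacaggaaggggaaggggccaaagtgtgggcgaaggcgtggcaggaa
Fcgr1, chr3:96293970-96294089, minus strand: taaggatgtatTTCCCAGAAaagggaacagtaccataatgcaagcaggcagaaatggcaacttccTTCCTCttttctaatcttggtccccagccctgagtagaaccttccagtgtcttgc
Fcgr3, chr1:171059395-171059514, minus strand: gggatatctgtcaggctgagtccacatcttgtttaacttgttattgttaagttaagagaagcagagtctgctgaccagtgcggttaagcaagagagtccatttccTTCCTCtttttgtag
Fcgr4, chr1:171018806-171018925, plus strand: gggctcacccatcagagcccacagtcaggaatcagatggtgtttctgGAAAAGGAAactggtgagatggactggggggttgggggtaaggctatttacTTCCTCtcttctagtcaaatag
Fcgr2b, chr1:170976072-170976191, minus strand: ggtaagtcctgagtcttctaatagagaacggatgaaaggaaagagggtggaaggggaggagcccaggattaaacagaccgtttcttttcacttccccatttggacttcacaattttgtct
Fcgrt, chr7:45103823-45103942, minus strand: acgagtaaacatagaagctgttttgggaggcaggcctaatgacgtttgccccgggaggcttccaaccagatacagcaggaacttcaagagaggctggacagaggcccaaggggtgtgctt
Over the whole promoter windows of 250 bases before and 50 after the start, and on both strands, GAGGAA or its reverse was found in *Fcgr1*, *Fcgr3* and *Fcgr4*, and in 28.3% of all 32851 promoters. The first base of the match was at -55 in *Fcgr1*, -15 in *Fcgr3* and -22 in *Fcgr4*, counted from the RefSeq start. No such match was in the windows of *Fcer1g*, *Fcgr2b* or *Fcgrt*, so genes that rose in CPZ were found with and without it. For a string in 28.3% of all promoters, matches in 3 of 6 genes say little about a kind of receptor. A link between match and change was not tested. Only this exact string was searched, so windows without it may still hold shorter or variant PU.1/ETS sites. TTCNNNGAA was in *Fcgr1* alone of the 6 and in 8.30% of all promoters. GAAANNGAA was in *Fcgr4* alone and in 8.56% of all promoters, and no match of 1 motif overlapped that of another.

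The libraries held 4605100 to 8197289 estimated counts. All 18 microglia markers, which include *Aif1*, *Csf1r* and *C1qa*, were detected and were higher in CPZ than CTL, with a median log2 fold change of 2.42. Their summed level was 479 to 584 CPM (counts scaled to library size by TMM) in CTL, 1654 to 3445 CPM in CPZ and 728 to 993 CPM in RCV. In bulk tissue, more cells of a type and more RNA per cell cannot be told apart. CPZ replicate 3 had the lowest mean log2-CPM of the microglia markers in its group, 5.98, against 6.36, 6.89 and 6.98 in the others. Markers of monocytes and neutrophils (8 genes), B and plasma cells (7), NK and T cells (7) and mast cells (5) were too low to test, each list summing to at most 15.1 CPM in any library. In CPZ the monocyte and neutrophil list summed to 0.144 to 1.55 CPM, against 0.814 to 12.4 CPM in CTL. Of 6 markers of border macrophages, 2 could be tested, *Mrc1* and *F13a1*, and neither was called in any comparison. All 5 oligodendrocyte markers were lower in CPZ than CTL, and 3 of 5 astrocyte markers were higher. Of all 14985 genes tested, 1148 were called higher and 374 lower in this comparison.

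In the CPZ brains, the gamma chain, the 3 activating IgG receptors and the inhibitory receptor were all higher than in CTL. With *Fcgr4* left out, the rise was 7.25- to 14.4-fold. The FcRn heavy chain was not called. All 6 genes passed the filter on low counts, but *Fcgr4* did so through the CPZ group alone, with 0 of 5 CTL, 4 of 4 CPZ and 0 of 4 RCV libraries above the minimum of 1.49 CPM. A gene that passes in this way had to differ, so the counts below rest on the other 5 genes. By the quasi-likelihood test of edgeR, adjusted after Benjamini and Hochberg over 14985 genes, 4 of these 5 were called higher in CPZ, as was *Fcgr4*, where 7.66% of all genes tested were. In the same 4 genes and in *Fcgr4*, every CPZ library was above every CTL library, which held for 8.25% of all genes. The median log2 fold change of all genes was -0.02.

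**Figure D1:**
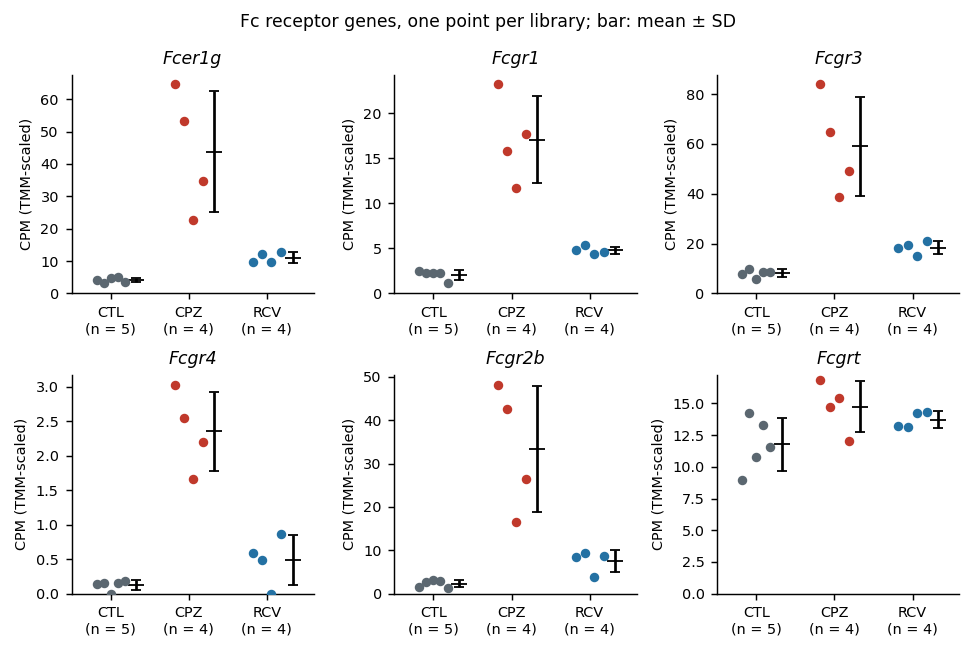
CPM of the 6 genes in each library (linear axes from 0), with 1 point per library in replicate order and a bar for the mean ± SD of CTL (n = 5), CPZ (n = 4) and RCV (n = 4). The CPZ points are above all CTL points for every gene but *Fcgrt*, and RCV points lie between them for *Fcer1g*, *Fcgr1*, *Fcgr3* and *Fcgr2b*.

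*Fcer1g*, the signalling chain, was measured at 16.8, 12.6, 18.4, 20.6 and 15.25 TPM (transcript abundance corrected for length and depth) in the CTL libraries. The CPZ libraries held 259, 218, 92.3 and 136 TPM, and the RCV libraries 39.2, 49.3, 38.4 and 52.5 TPM. The 3 groups did not overlap, and the CPZ group had the widest spread, with replicate 3 lowest. The log2 fold change of CPZ against CTL was 3.39 (SE 0.29, adjusted p = 4.22e-06, edgeR). Against RCV, the CPZ level was higher by a log2 fold change of 1.99 (SE 0.28, adjusted p = 0.000828, edgeR).

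*Fcgr3*, the low-affinity activating receptor, followed the gamma chain. Its CTL libraries held 13.6, 16.8, 9.84, 15.2 and 14.8 TPM, the CPZ libraries 143, 110, 66.1 and 81.6 TPM, and the RCV libraries 31.1, 32.8, 25.2 and 36.1 TPM. Again the groups did not overlap, and CPZ replicate 3 was the lowest of its group. The log2 fold change was 2.86 (SE 0.22, adjusted p = 1.47e-06, edgeR) for CPZ against CTL and 1.68 (SE 0.21, adjusted p = 0.00048) for CPZ against RCV.

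*Fcgr1*, the high-affinity activating receptor, had few counts outside CPZ. There were 18, 15, 15, 15 and 6 counts in CTL, 161, 130, 84 and 137 in CPZ, and 33, 33, 23 and 21 in RCV. No CTL library reached the counts of any RCV library, and no RCV library those of CPZ. The log2 fold change of CPZ against CTL was 3.00 (SE 0.22, adjusted p = 3.38e-07, edgeR), and that of CPZ against RCV was 1.82 (SE 0.21, adjusted p = 0.000251). The deposited TPM gave a smaller change. In TPM, *Fcgr1* was at 2.55, 4.25, 3.38, 3.10 and 2.52 in CTL, at 24.0, 12.97, 9.59 and 15.3 in CPZ, and at 5, 5.48, 3.67 and 3.77 in RCV. CTL and RCV overlapped on that scale, and the log2(TPM + 1) difference of CPZ against CTL was 1.93 (adjusted p = 6.76e-05) by limma. The CPM per TPM, which follows the transcript length that was assumed for a library, was 0.437 to 0.960 for *Fcgr1* in CTL and 0.965 to 1.22 in CPZ, whereas for *Fcer1g* it was 0.241 to 0.251 and 0.244 to 0.254. A smaller shift in *Fcgr2b* is given below. *Fcgr1* has 2 annotated transcripts, of which 1 is coding, and which of them the reads came from was not tested.

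*Fcgr4*, the activating receptor for IgG2 subclasses, was near the limit of detection outside CPZ. It had 1, 1, 0, 1 and 1 counts in CTL, 21, 21, 12 and 17 in CPZ, and 4, 3, 0 and 4 in RCV. Summed over the libraries, 71 counts in CPZ against 4 in CTL gave a ratio per total count of 19.4, with an exact 95% interval of 7.25 to 73.1 that covers counting error only. For RCV against CTL, 11 counts against 4 gave a ratio of 3.87 (1.15 to 16.7). The fit called *Fcgr4* higher in CPZ than CTL (log2 fold change 4.06, SE 0.54, adjusted p = 6.78e-05, edgeR) and than RCV (2.25, SE 0.47, adjusted p = 0.00756).

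*Fcgr2b*, the inhibitory receptor, rose beside the activating ones. The CTL libraries held 1.83, 3.79, 4.08, 4.26 and 1.72 TPM, the CPZ libraries 56.3, 50.6, 18.6 and 30.1 TPM, and the RCV libraries 10.4, 11.2, 3.95 and 10.7 TPM. The CPZ libraries were all above the others, and RCV replicate 3 lay within the CTL range in TPM. Its log2 fold change was 3.85 (SE 0.37, adjusted p = 1.38e-05, edgeR) for CPZ against CTL and 2.13 (SE 0.35, adjusted p = 0.00239) for CPZ against RCV. Because reads in the shared stretch were divided between *Fcgr2b* and *Fcgr3*, part of each value rests on that division. The CPM per TPM of *Fcgr2b* was 0.682 to 0.817 in CTL and 0.841 to 0.889 in CPZ. Its log2(TPM + 0.1) difference of CPZ against CTL was 3.56 (adjusted p = 6.66e-05, limma).

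*Fcgrt*, the FcRn heavy chain, stood apart from the other 5. The CTL libraries held 12.9, 18.6, 13.96, 17.2 and 17.5 TPM, the CPZ libraries 22.9, 20.8, 20.6 and 16.7 TPM, and the RCV libraries 16.9, 17.9, 18.1 and 20.5 TPM. The 3 groups overlapped, and the log2 fold change of CPZ against CTL was 0.32 (SE 0.13, unadjusted p = 0.0277, adjusted p = 0.158, edgeR). A small rise is therefore not excluded. For CPZ against RCV it was 0.10 (SE 0.14, adjusted p = 0.768). *B2m*, the light chain that FcRn shares with MHC class I, had a log2 fold change of 2.10 in CPZ against CTL (SE 0.13, adjusted p = 2.39e-07), with means of 52.2 CPM in CTL, 225 CPM in CPZ and 94.5 CPM in RCV. Of 6 endothelial markers none was called in comparisons with CPZ, and *Cldn5* was lower in RCV against CTL (-0.68, SE 0.12, adjusted p = 0.0263). None of 5 choroid plexus markers was called in any comparison, with a sum that varied from 415 to 2730 CPM in CTL, 611 to 2329 CPM in CPZ and 13.1 to 1422 CPM in RCV. The part of these cells in the *Fcgrt* values was not tested.

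**Figure D2:**
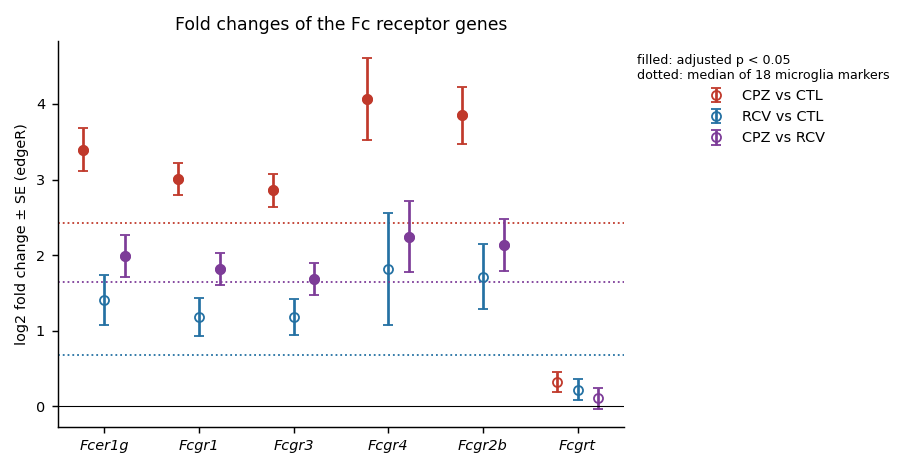
Log2 fold change with its SE (y axis, edgeR) for each gene (x axis) in the 3 comparisons of the legend, filled where the adjusted p was below 0.05. Dotted lines give the median of the 18 microglia markers in the same comparison, 2.42, 0.67 and 1.65, and *Fcgrt* lies below all of them.

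After 2 weeks of recovery, the 5 genes that rose were lower than in CPZ but not shown to be back at the control level. In CPZ against RCV, 4 of the 5 genes other than *Fcgr4* were called higher in CPZ, where 5.13% of all genes were called, and their CPZ libraries were all above the RCV libraries, as in 8.26% of all genes. *Fcgr4* was also called, through the filter described above. In RCV against CTL, none of the 6 was called by edgeR, where 0.360% of all genes were called higher. With *Fcgr4* left out, 4 of 5 had an unadjusted p below 0.05, as did 4.03% of all genes with a higher level in RCV. The log2 fold changes were 1.40 for *Fcer1g* (SE 0.33, adjusted p = 0.129), 1.18 for *Fcgr1* (SE 0.25, adjusted p = 0.0607), 1.18 for *Fcgr3* (SE 0.24, adjusted p = 0.0628) and 1.72 for *Fcgr2b* (SE 0.44, adjusted p = 0.184). In CPM, all 4 RCV libraries of these genes were above all 5 CTL libraries, which was so for 2.21% of all genes. For *Fcgr1* the TPM gave a smaller value, a difference of 0.40 on log2(TPM + 1) (adjusted p = 0.8, limma). *Fcgr4* had a log2 fold change of 1.82 (SE 0.74, adjusted p = 0.648) and *Fcgrt* of 0.22 (SE 0.14, adjusted p = 0.926), and the groups overlapped in both. The same 4 genes, *Fcer1g*, *Fcgr1*, *Fcgr3* and *Fcgr2b*, passed the threshold by DESeq2 and by edgeR on the 2 groups alone. None of them passed by limma-voom, with adjusted p from 0.362 (*Fcgr3*) to 0.819 (*Fcgr2b*), so the call depends on the test. *B2m* was called in RCV against CTL by the main test, with a log2 fold change of 0.86 (SE 0.13, adjusted p = 0.00902).

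The share of the CPZ change that was left in each RCV mouse was taken on the log2-CPM scale, as the distance of the mouse from the CTL mean over the distance of the CPZ mean. It was 0.42 ± 0.065 (SD, n = 4) for *Fcer1g*, 0.40 ± 0.040 for *Fcgr1*, 0.42 ± 0.074 for *Fcgr3* and 0.44 ± 0.16 for *Fcgr2b*. These 4 shares differed by less than their spread between mice. The mean of the microglia markers had a share of 0.32 ± 0.078. On the linear CPM scale the shares were 0.17 for *Fcer1g*, 0.18 for *Fcgr1*, 0.20 for *Fcgr3* and 0.17 for *Fcgr2b*, since a log scale gives more weight to the rise above a low start. The share of *Fcgr1* rests on counts, and its rise in RCV was smaller in TPM. For *Fcgr4* the share ranged from -0.18 to 0.56 over the 4 mice and rests on 0 to 4 counts each.

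Per transcript length, *Fcer1g* had the highest mean of the 6 genes in every group, at 16.7 TPM in CTL, 176 in CPZ and 44.8 in RCV. In CTL, *Fcgrt* (16.0 TPM) and *Fcgr3* (14.05) followed, and these 3 overlapped, as did *Fcgr1* (3.16) and *Fcgr2b* (3.14) below them. In CPZ the order was *Fcer1g*, *Fcgr3* (100 TPM), *Fcgr2b* (38.9), *Fcgrt* (20.2), *Fcgr1* (15.5) and *Fcgr4* (4.32). *Fcer1g* was above *Fcgr3* in 4 of 4 CPZ libraries although their ranges overlapped, while *Fcgr2b* was above *Fcgrt* in 3 of 4 and *Fcgrt* above *Fcgr1* in 3 of 4. In RCV, *Fcgrt* (18.4 TPM) was again above *Fcgr2b* (9.05) in all 4 libraries. *Fcgr4* had the lowest mean in each group.

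Among the 4 IgG receptor genes alone, *Fcgr3* made up most of the transcripts in every group. Its share of their summed TPM was 68.2% ± 7.73 (SD, n = 5) in CTL, 63.6% ± 2.89 (n = 4) in CPZ and 69.1% ± 5.46 (n = 4) in RCV. The share of *Fcgr2b* was 15.2% ± 6.10 in CTL, 23.7% ± 3.84 in CPZ and 19.1% ± 4.81 in RCV, with overlapping ranges. That of *Fcgr1* was 15.4% ± 2.76, 9.84% ± 1.88 and 9.95% ± 1.84, and that of *Fcgr4* was 1.11% ± 0.673, 2.81% ± 0.333 and 1.79% ± 1.31. The CTL and CPZ ranges of *Fcgr1* did not overlap, but this share carries the difference between its TPM and its counts described above. The share of *Fcgr2b* carries a smaller difference of the same kind.

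**Figure D3:**
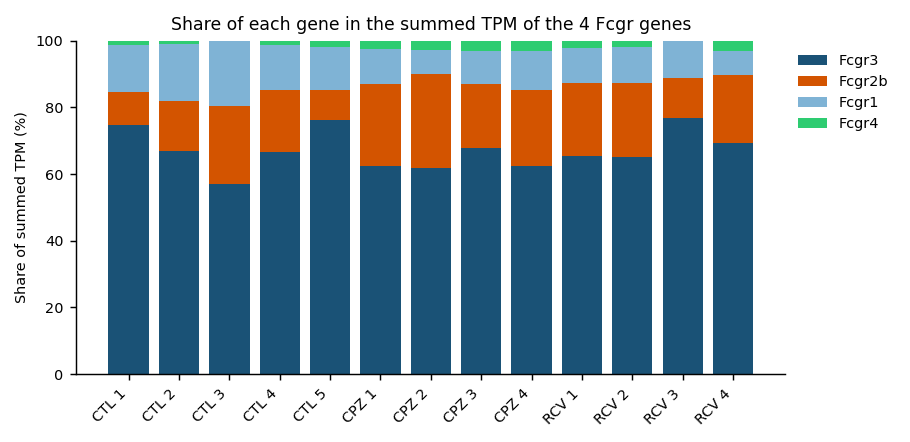
Share (%, y axis) of each of the 4 IgG receptor genes in their summed TPM, 1 bar per library (x axis). *Fcgr3* is the largest part of every bar, and *Fcgr2b* has a mean of 15.2% in CTL, 23.7% in CPZ and 19.1% in RCV.

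Whether the genes changed by unequal factors was tested on log2 ratios in each library, with exact two-sided permutation tests over libraries. The 18 tests set the other 5 genes against *Fcer1g*, and *Fcgr2b* against *Fcgr3*, in 3 comparisons. With 5 against 4 libraries the smallest p is 0.00794, and with 4 against 4 it is 0.0286. None passed after adjustment over the 18 tests, and 4 had an unadjusted p below 0.05. A ratio at the smallest possible p could not pass alone after this adjustment, so the lack of a pass does not show equal factors. The ratio of *Fcgrt* to *Fcer1g* had the largest difference of the 18, -2.89 in log2 in CPZ against CTL and -1.13 in RCV against CTL, each without overlap (both exact p = 0.00794, adjusted p = 0.0714). *Fcgr2b* over *Fcgr3*, inhibitory over activating receptor, was -1.75 ± 0.62 (SD, n = 5) in CTL, -0.87 ± 0.25 (n = 4) in CPZ and -1.31 ± 0.39 (n = 4) in RCV. The difference of 0.87 between CPZ and CTL had an exact permutation p of 0.0397 and an adjusted p of 0.179, and the ranges overlapped. The ratio of *Fcgr3* to *Fcer1g* was 0.92 ± 0.46 in CTL and 0.48 ± 0.20 in CPZ (exact permutation p = 0.127), so a difference between the receptor and its signalling chain was not larger than the spread.

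A second family of 18 exact permutation tests asked whether a gene changed by another factor than the microglia markers, from its log2-CPM minus the mean log2-CPM of the 18 markers in the same library. In CPZ against CTL, *Fcgr2b* rose by 1.46 more than the markers, *Fcer1g* by 1.03 more and *Fcgr3* by 0.58 more, each without overlap (all exact p = 0.00794, adjusted p = 0.0286). For *Fcgrt* the difference from the markers was -1.87 (exact p = 0.00794, adjusted p = 0.0286). *Fcgr1* was 0.67 above the markers (exact p = 0.0317, adjusted p = 0.0519), and on the TPM scale this difference was -0.0056. *Fcgr4* also passed, but its value rests on CTL counts of 0 and 1 and on the prior count. In RCV against CTL, *Fcgr3* was 0.45 above the markers (exact p = 0.00794, adjusted p = 0.0286), and *Fcer1g* 0.66 above (exact p = 0.0238, adjusted p = 0.0514). Of the 18 tests 6 passed, and 0 passed without any 1 of the 5 CTL libraries or without CPZ replicate 1, 3 or 4, while 13 passed without CPZ replicate 2. Without a CTL library every comparison is 4 against 4, where the smallest p is 0.0286. After adjustment over the 18 tests, that p passes only where most of the tests reach it. The 0 without a CTL library therefore says little about stability. Leaving out a CPZ library also raises the smallest p in the comparisons with CPZ. The mean of the markers includes genes known to fall or stay level in activated microglia, such as *P2ry12* and *Tmem119*, whose log2 fold changes in CPZ against CTL were 0.97 and 1.18. Other markers rose by more than *Fcgr3* (2.86) but by less than *Fcgr2b* (3.85), among them *Ly86* (3.68), *Tyrobp* (3.46) and *Trem2* (3.04).

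**Figure D4:**
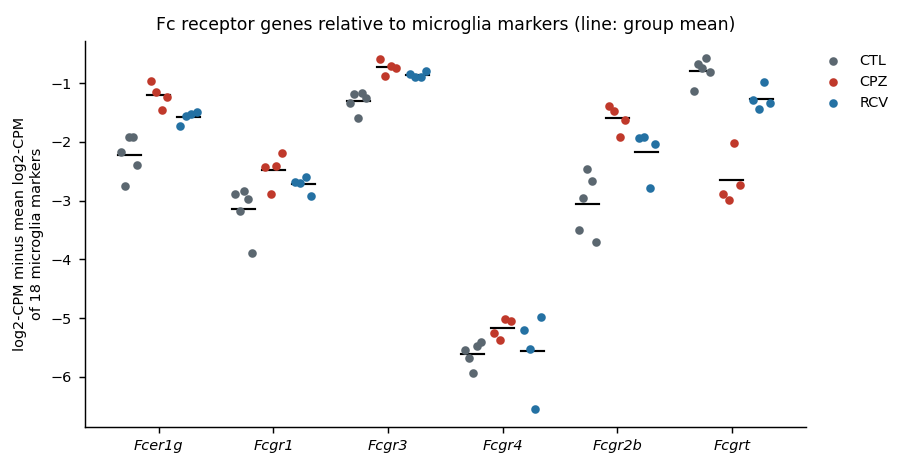
Log2-CPM of each gene minus the mean log2-CPM of the 18 microglia markers (y axis), 1 point per library and a line at the group mean, for CTL (n = 5), CPZ (n = 4) and RCV (n = 4). CPZ points of *Fcer1g*, *Fcgr3* and *Fcgr2b* lie above the CTL points, and those of *Fcgrt* lie below.

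The genes that carry the signal of Fc receptors inside the cell were higher in CPZ in most cases. The counts below stand beside 7.66% of all genes and beside the microglia markers, of which 18 of 18 were called with a median of 2.42, above the median of each of these lists. Of 4 kinases, *Syk*, *Lyn* and *Btk* were called higher in CPZ against CTL. *Fgr* was called too, but like *Fcgr4* it passed the filter through the CPZ group and had to differ. It had at most 3 counts in any CTL library and a mean of 1.22 CPM in RCV. The median log2 fold change of the 4 kinases was 2.27. *Syk*, which binds the phosphorylated gamma chain, had a log2 fold change of 1.45 (SE 0.18, adjusted p = 3.86e-05), and the Src-family kinases *Lyn* and *Fgr* had 2.09 and 4.22. Of 6 adaptors, 5 were higher (median 1.78), among them *Vav1* (2.36), *Lat2* (2.46) and *Lcp2* (2.03), while *Vav3* had 0.34 (adjusted p = 0.779). Of 6 genes of lipid signalling, 4 were higher (median 1.40), including *Plcg2* (1.72) and *Pik3cg* (2.23). Of 5 genes of actin remodelling in phagocytosis, 4 were higher (median 2.25), including *Rac2* (2.78) and *Dock2* (2.79).

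The restraining side was divided. Of 6 genes that restrain Fc receptor signals, 3 were higher in CPZ (median 0.72). *Inpp5d*, the phosphatase recruited by the inhibitory receptor, had a log2 fold change of 1.83 (SE 0.20, adjusted p = 2.99e-05), *Ptpn6* had 2.84 (SE 0.26, adjusted p = 3.24e-06) and *Dok1* 1.24 (SE 0.30, adjusted p = 0.0133). *Dok3* (0.05), *Cbl* (0.07) and *Sirpa* (0.21) were not called. *Cbl* and *Sirpa* are known in neurons too and were at 116 and 366 CPM in CTL, against 13.1 CPM for *Inpp5d*. In RCV against CTL, none of these 27 genes of the 5 lists was called, where 0.360% of all genes were called higher, a share at which 0 calls in so short a list says little. The median log2 fold changes there were 0.69 for the kinases, 0.54 for the adaptors, 0.61 for lipid signalling, 0.91 for actin and 0.17 for restraint. In CPZ against RCV, 4 kinases, 4 adaptors, 3 genes of lipid signalling, 3 of actin and 2 of restraint were called higher in CPZ. The kinases include *Fgr*, which passed the filter through the CPZ group. In the same comparison, 5.13% of all genes and 18 of 18 microglia markers were called higher in CPZ.

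**Figure D5:**
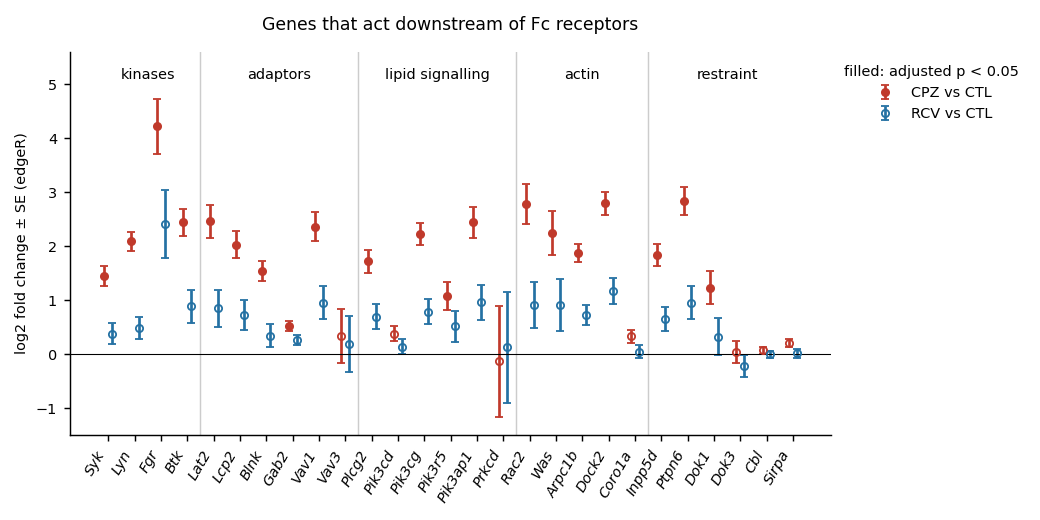
Log2 fold change with its SE (y axis, edgeR) of the genes that act downstream of Fc receptors (x axis, grouped by role), in CPZ against CTL and RCV against CTL, filled where the adjusted p was below 0.05. *Fgr* has the largest value, 4.22 in CPZ, but passed the filter on low counts through the CPZ group. No RCV value is filled.

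Other receptors and partners were mostly too low to test. Of 13 other Fc receptor genes, 2 could be tested. *Fcrls*, an Fc receptor-like gene of microglia, had a log2 fold change of 3.41 in CPZ against CTL (SE 0.27, adjusted p = 4.78e-06), from a mean of 14.5 CPM in CTL to 154 CPM in CPZ and 24.0 CPM in RCV. *Trim21*, a receptor for antibody in the cytosol, had 0.43 (adjusted p = 0.537). The IgE receptor genes *Fcer1a* and *Ms4a2*, whose proteins pair with the gamma chain on mast cells, were at or below a mean of 0.037 CPM in each group. *Tyrobp*, the other signalling adaptor of microglia with the same kind of tyrosine motif, had a log2 fold change of 3.46 (SE 0.28, adjusted p = 4.78e-06), and the other 4 adaptors of that list were not tested. Of 8 other receptors that pair with the gamma chain, only *Oscar* could be tested (-0.24, adjusted p = 0.752).

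Transcripts of antibody chains and pentraxins were mostly scarce, except for *Ighm*, which encodes the heavy chain of IgM and not of IgG. Of 13 genes for antibody chains and pentraxins, *Ighm* and *Ighg2c* could be tested, and neither was called. *Ighm* had a log2 fold change of 0.87 in CPZ against CTL (SE 0.30, adjusted p = 0.104), with means of 19.5 CPM in CTL, 35.4 CPM in CPZ and 22.2 CPM in RCV, and its CPZ libraries were all above the CTL libraries. *Ighg2c* had -0.19 (adjusted p = 0.831). *Ighg1*, *Ighg2b*, *Ighg3* and *Igha* had means of at most 0.097 CPM in any group, and *Ighe* and *Apcs* had no count. The light chain gene *Igkc* had means of 0.374 CPM in CTL, 0.298 CPM in CPZ and 0.416 CPM in RCV and did not pass the filter. *Ptx3*, a pentraxin that binds Fc receptors, had means of 0.091 CPM in CTL, 2.73 CPM in CPZ and 0.331 CPM in RCV and did not pass the filter. These values are of transcripts in the brain, and IgG from blood was not measured.

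Of the neighbours of the 6 genes on the chromosomes, 3 of the 38 described (7.89%) were called in CPZ against CTL, beside 10.2% of all genes. Within 100 kb, these 38 genes had a median log2 fold change of 0.06, and 1 was called higher and 2 lower. *Gm20634* near *Fcgr1* was higher (0.84, SE 0.18, adjusted p = 0.00543). *Adamts4*, 16.1 kb from *Fcer1g* and known in oligodendrocytes, was lower (-1.08, SE 0.20, adjusted p = 0.00207), as was *Sv2a* near *Fcgr1* (-0.20, SE 0.06, adjusted p = 0.0290). *Fcgr2b* and *Fcgrt* each overlap an annotated antisense gene, and whether the counting used strand is not given in the sources used here.

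The genes most like each member over the 13 libraries, members left out, were chosen by rank alone. By Pearson's r of log2-CPM, *Fcer1g* was nearest to *C1qa* (r = 0.99), *Arhgap45* (0.99) and *C1qc* (0.99). *Fcgr3* was nearest to *Mpeg1* (0.99), *Hpgds* (0.99) and *Tyrobp* (0.99), and *Fcgr1* to *B2m* (0.98), *Lgals3bp* (0.98) and *Arhgap45* (0.98). *Fcgr2b* was nearest to *B2m* (0.99), *Csf3r* (0.98) and *Lgals3bp* (0.98), and *Fcgr4* to *Hcar2* (0.98), *Tbxas1* (0.97) and *Itgb2* (0.97). *Fcgrt* had no gene so near, with *Prkcsh* (0.86), *Plscr2* (0.86) and *Hps5* (0.86) first. The libraries of 3 groups share the step between CTL and CPZ, so these values describe the pattern and carry no test. After each group's mean was taken out, r was 0.87 between *Fcer1g* and *C1qa* and 0.92 between *Fcgr3* and *Mpeg1*. Between members that rose in CPZ, r in the same way ranged from 0.16 (*Fcgr1* and *Fcgr4*) to 0.73 (*Fcer1g* and *Fcgr2b*). It was 0.65 for *Fcer1g* and *Fcgr3*. For *Fcgrt*, r ranged from -0.025 with *Fcgr1* to 0.44 with *Fcgr3*, and was 0.08 with *Fcer1g*. These ranges overlapped.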

How the data were processed

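Bulk RNA-seq libraries were made with a poly(A) kit from 13 hemispheres and sequenced as paired reads of 50 bases. Estimated counts without depth scaling, TPM values and gene lengths were deposited by the authors. The submitters' processing notes name mm10, STAR and RSEM, and the paper names the RNASequest pipeline, with no versions given in the sources used here. RSEM divides reads that match several genes. The 92 spike-in identifiers had 0 counts. Groups came from the labels, where titles of RCV libraries begin with "Veh". Libraries of a group differed by more than sampling noise (chi-square per gene 4.45 to 17.0).

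Estimated counts were rounded, filtered with filterByExpr (edgeR 4.0.16), TMM-scaled and fitted with robust quasi-likelihood dispersions, all 3 groups together, with F tests adjusted over all 14985 genes with a threshold of 0.05. Log2-CPM used a prior count of 2. Alternatives used DESeq2 1.42.0, limma 3.58.1 (voom, and TPM with a pseudocount of 1 or 0.1), other filters, a replicate block and each library left out. Code was tested on simulated data. The named genes are the 6 members, the 3 genes most correlated with each, tested genes within 100 kb, and genes of the 23 lists. The members and lists were chosen with earlier results of these data known. Positions are from GENCODE M21 (6 of 6 identifiers matched) and promoters from RefSeq (6 of 6 genes matched). Protein sequences were not analysed here. Some items of the lists and neighbourhoods are not reported here.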

Additional observations from a re-analysis of the deposited data

Results flagged for a closer look

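*Fcgr1* in CTL was flagged because replicate 5, with 6 counts against 15 to 18 in the others, lay far below the rest of its group in CPM, with a gap of 0.854 of the group's range. *Fcgr4* in CTL was flagged because replicate 3 had 0 counts against 1 in each of the others, a gap of 0.741 of the range that is a single count. In 18 groups checked, chance flags about 1 in 20. Without CTL replicate 5, the log2 fold change of *Fcgr1* in CPZ against CTL was 2.87, and the gene was still called by edgeR.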

How the results depend on the processing

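The alternatives kept the direction of every member's fold change in each comparison. With at least 10 counts required in every library, 2 members were called in CPZ against CTL and 2 in CPZ against RCV, since *Fcgr1*, *Fcgr4* and *Fcgr2b* then left the test. For RCV against CTL, where edgeR called 0, the count was 1 with no filter on counts (*Fcgr1*), 4 with only the 2 groups compared, 4 by DESeq2, and 2 on log2(TPM + 1) and 2 on log2(TPM + 0.1). The replicate block also gave 1 (*Fcgr3*) in RCV against CTL and changed no other call of a member. The count in RCV against CTL stayed at 0 with DESeq2 size factors, with at least 10 counts in every library, by limma-voom and on unfiltered log2(TPM + 1). Same-numbered libraries did not pair (12 correlations of -0.20 to 0.14, with 0 libraries nearest to their own number). In CPZ against RCV, *Fcgr4* missed the threshold on log2(TPM + 0.1) (adjusted p = 0.102, limma). Leaving out each library gave 5 to 5 calls in CPZ against CTL, 0 to 0 in RCV against CTL and 5 to 5 in CPZ against RCV. *Fcgr4* is among each 5 and had to differ, so its call is no sign of stability.

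No ratio between members passed on log2-CPM, 4 did on log2(TPM + 0.1), and 0 to 0 did with a library left out. With a library left out, the smallest possible p is larger in the comparisons that lose it, so the 0 says little. Of the 18 tests relative to microglia markers 6 passed, against 12 with a prior count of 0.5, 11 with the median of the list, 16 with the homeostatic list, and 0 to 13 with a library left out, where the smallest p that permutations can give is larger. The count was 0 without any 1 of CTL replicates 1 to 5 or of CPZ replicates 1, 3 and 4, and 13 without CPZ replicate 2. The share of the CPZ change remaining on the linear scale was 0.17 for *Fcer1g*, 0.18 for *Fcgr1*, 0.20 for *Fcgr3* and 0.17 for *Fcgr2b*. With a library left out it was 0.39 to 0.45 for *Fcer1g*, 0.35 to 0.42 for *Fcgr1*, 0.39 to 0.45 for *Fcgr3*, 0.19 to 0.44 for *Fcgr4* and 0.40 to 0.51 for *Fcgr2b*.

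Signs turned in small differences that were not called. The log2 ratio of *Fcgr4* to *Fcer1g* in CPZ against CTL was -0.59, and 0.40 with a prior count of 0.5 and 0.56 on log2(TPM + 0.1). In CPZ against RCV it was 0.03, and -0.11, -0.03 and -0.32 without CPZ replicate 3, CPZ replicate 4 and RCV replicate 3. In that comparison, with a library left out, the ratio to *Fcer1g* ranged from -0.24 to 0.027 for *Fcgr1* (highest without CPZ replicate 2) and from -0.025 to 0.33 for *Fcgr2b* (lowest without RCV replicate 3). Relative to microglia markers on log2(TPM + 0.1), *Fcgr1* was at -0.0056 in CPZ against CTL and -0.21 in RCV against CTL. With the median of the list, *Fcgr1* was at -0.077 and *Fcgr3* at -0.19 in CPZ against RCV. With the homeostatic list, *Fcgrt* was at 0.014 in RCV against CTL. With the full list, *Fcgr4* in RCV against CTL was at -0.04, -0.08 and -0.16 without CTL replicate 3, RCV replicate 1 and RCV replicate 4, and at 0.37 without RCV replicate 3. The cause of these changes was not tested. Depth limits *Fcgr4* most, at 0 to 4 counts outside CPZ.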
